A study of Rattus norvegicus with 10 samples.

Results

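The comparison described here sets the miRNAs of 2 libraries taken 34 days after the start of placebo treatment (PLA_A) against those of 2 libraries taken before therapy (CIA_B), 4 libraries of the 10 in the series. The tissue came from female Wistar rats in which arthritis had been induced with bovine type II collagen in Freund's adjuvant (collagen-induced arthritis, CIA), and animals of all groups carried this disease. Placebo was a weekly injection of saline into the peritoneum of shaved animals, begun at disease onset. The other 6 libraries, 2 in each group, were taken 1 h after the placebo injection (PLA_E) and 1 h (MS_E) and 34 days (MS_A) after mechanical stimulation with a needle. Ages of the animals are not given. Tissue was excised at sacrifice, so the groups hold different animals. No group was left without treatment for 34 days, so the time that passed, the course of the arthritis and the placebo cannot be told apart in this comparison.

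The submitters label the tissue as muscle, their description of the series also mentions blood, and the methods describe subcutaneous tissue that includes muscle around the points on back and leg where the stimulated animals were treated. The miRNAs that mark skeletal muscle were abundant in all 4 libraries, with miR-133a-3p between 77116 and 139388 cpm and miR-1-3p between 10117 and 104886 cpm. Cpm are counts scaled to a fixed library total of reads on miRNAs and with the TMM factors of edgeR. The libraries held 1513799 (CIA_B replicate 1), 6385154 (CIA_B replicate 2), 3050255 (PLA_A replicate 1) and 5723107 (PLA_A replicate 2) reads counted on miRNAs. CIA_B replicate 1 was the smallest library of the series, with 3 counts equal to 2.60 cpm, against 0.441 to 0.747 cpm in the remaining 3 libraries compared. In each of the 5 groups 1 library held several times more miR-1-3p than the other. Here this was replicate 1 of both groups, with 104886 cpm in CIA_B and 80416 cpm in PLA_A, against 10117 and 15567 cpm in replicate 2. miR-133a-3p did not follow this split, with 117238 cpm in CIA_B replicate 1 and 77116 cpm in replicate 2 but 89188 and 139388 cpm in PLA_A. The libraries of a group therefore differed in miR-1-3p as well as in depth, and values are given for each library.

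miRNAs are short RNAs cut from the arms of a hairpin precursor, of which the 5p or 3p strand is loaded into Argonaute and guides it to messages that pair with bases 2 to 8 of the miRNA, the seed. miRNAs with the same seed share many of their targets. In a tissue sample they also report on its cells, since miR-142 and miR-150 are made in blood-derived cells, miR-144 and miR-451 in the erythroid lineage, miR-1, miR-133 and miR-206 in muscle, and the imprinted Dlk1-Dio3 cluster mainly in embryonic, neural and regenerating tissues. miR-21 is induced in many inflamed and wounded tissues, and the miR-29 family represses collagens and other matrix genes.

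The mature sequences of the miRNAs on which the results turn are given 5′ to 3′ with the seed in capitals. They are RefSeq sequences of the rat assembly GRCr8, in which 22 of the 25 differential miRNAs were matched by name. Both strands of the miR-142 hairpin and the main strand of miR-21 are shown because miR-142 had the largest changes of all and miR-21-5p was the most abundant of the miRNAs of inflammation that rose.
miR-142-3p: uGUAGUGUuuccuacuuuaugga
miR-142-5p: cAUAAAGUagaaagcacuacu
miR-21-5p: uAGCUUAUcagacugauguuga

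The miR-29 family is shown because its main strands share 1 seed and had values of one direction in both pairs of libraries.
miR-29b-3p: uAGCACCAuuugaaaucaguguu
miR-29a-3p: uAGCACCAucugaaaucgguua
miR-29c-3p: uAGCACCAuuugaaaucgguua

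From the miR-17/92 cluster and its paralogs, the differential miR-20a-5p and miR-19a-3p are shown beside the members with the same seeds, none of which was differential.
miR-20a-5p: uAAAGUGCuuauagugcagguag
miR-17-5p: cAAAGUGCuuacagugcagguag
miR-106b-5p: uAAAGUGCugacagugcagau
miR-93-5p: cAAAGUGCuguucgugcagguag
miR-19a-3p: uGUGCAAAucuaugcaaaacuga
miR-19b-3p: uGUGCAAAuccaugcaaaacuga

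From the Dlk1-Dio3 cluster, miR-381-3p and miR-539-3p are shown because they were the only differential miRNAs, among those with a RefSeq sequence, that shared a seed with each other, and miR-410-3p because it fell furthest among the cluster members above 100 cpm.
miR-381-3p: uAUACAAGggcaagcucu
miR-539-3p: cAUACAAGgguaauuucuuuuc
miR-410-3p: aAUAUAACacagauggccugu

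Of 359 miRNAs tested, 25 were differential between PLA_A and CIA_B by a p under 0.05 before adjustment in the edgeR test and a change of more than 2-fold, which is 6.96% of those tested. The study applied these thresholds with limma-voom, which gave 20 here, 12 higher and 8 lower. Of the 25 in edgeR, 17 were higher (4.74%) and 8 lower (2.23%) in PLA_A. The higher ones included both strands of the leukocyte hairpins miR-142 and miR-150, both strands of the erythroid hairpin miR-144, miR-21-5p, miR-29b-3p and members of the miR-17/92 cluster, and 7 of the 8 lower ones came from the Dlk1-Dio3 cluster. After Benjamini-Hochberg adjustment no miRNA stayed under 0.05 in edgeR, where the smallest adjusted p was 0.543, while 27 miRNAs (7.52%) had an unadjusted p under 0.05. DESeq2 gave 2 with an adjusted p under 0.05, both strands of miR-142, limma-voom gave 0, and edgeR without PLA_A replicate 2 gave 1. Rose and fell are written of these 25 alone, and passed refers to the edgeR test unless another is named. Of the 25, limma-voom did not call miR-150-5p, miR-150-3p, miR-144-3p, miR-15b-3p, miR-187-3p, miR-539-3p and miR-92a-1-5p, and DESeq2 did not call miR-15b-3p, miR-92a-1-5p and let-7c-1-3p. The balance of directions depended on the scaling, since the median log2 fold change over all tested miRNAs was 0.11 with TMM factors, 0.03 with the size factors of DESeq2 and 0.40 with library size alone, and the differential miRNAs then numbered 17 higher and 8 lower, 15 higher and 15 lower, and 20 higher and 3 lower.

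**Figure D1:**
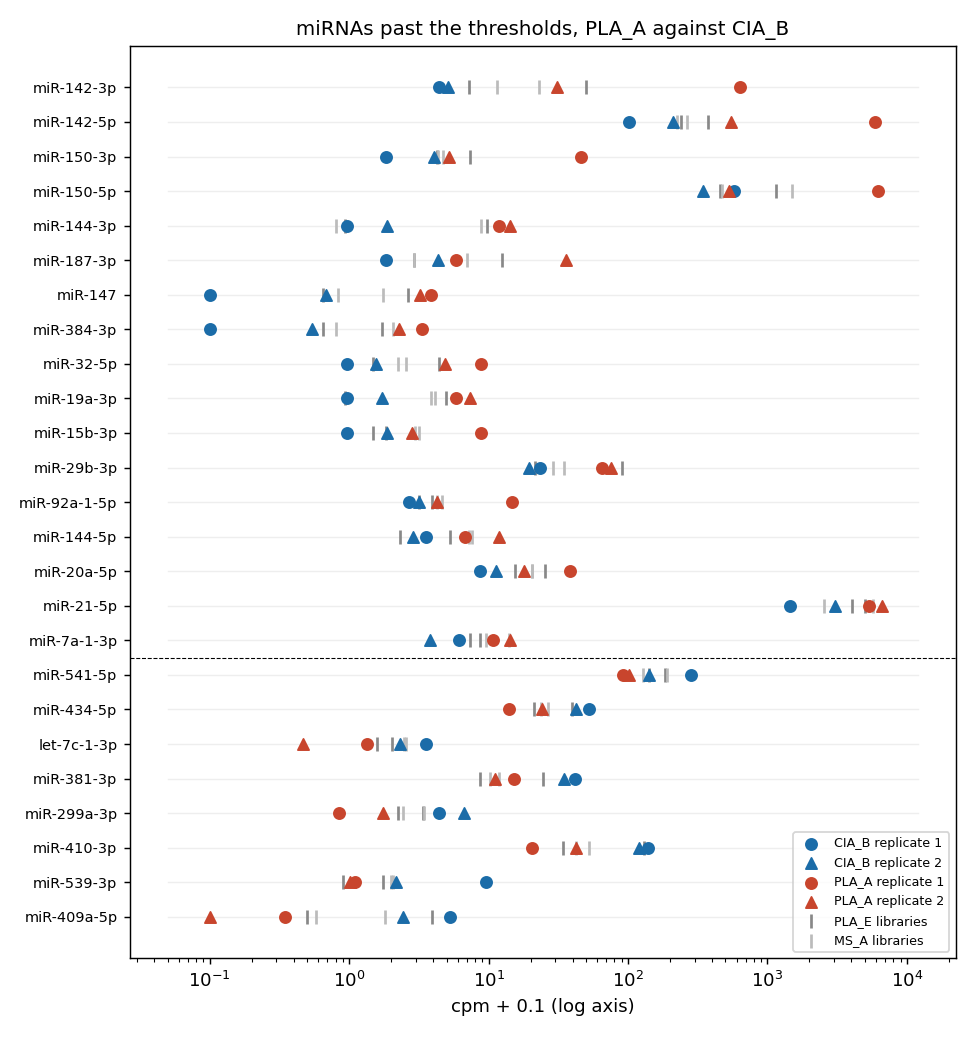
Level (cpm + 0.1, log axis) of the 25 differential miRNAs in each PLA_A and CIA_B library (circles replicate 1, triangles replicate 2), with the libraries of PLA_E and MS_A as grey strokes. miRNAs above the dashed line rose and those below it fell, and in miR-142 and miR-150 the PLA_A replicate 1 stands far to the right of all other libraries.

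The largest changes were those of both strands of miR-142, a hairpin of leukocytes. Of 9 tested, 4 rose and 0 fell (4.74% and 2.23% of all), and in 5 both PLA_A libraries lay above both CIA_B libraries (55.6%, against 20.9% of all miRNAs tested). The median log2 fold change of these 9 was 2.45, against 0.11 over all miRNAs. In bulk tissue more cells of a type and more RNA per cell cannot be told apart.

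miR-142-3p, made from the hairpin that marks all haematopoietic cells, had 4.33 and 5.0 cpm in CIA_B and 636 and 30.8 cpm in PLA_A replicates 1 and 2. The groups did not overlap, but the PLA_A libraries differed from each other more than the lower of them differed from CIA_B. The log2 fold change was 6.03 (SE 1.53, adjusted p = 0.543 in edgeR). miR-142-5p, its partner strand and the more abundant one, had 101 and 209 cpm in CIA_B against 5855 and 551 cpm in PLA_A, a log2 fold change of 4.36 (SE 0.98). Both strands remained past the thresholds when any 1 of the 4 libraries was left out, and they were the only 2 miRNAs of the 25 to do so. Without PLA_A replicate 1 their log2 fold changes were 2.61 and 1.8.

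miR-150-5p, a miRNA of mature lymphocytes, had 572 and 343 cpm in CIA_B and 6222 and 527 cpm in PLA_A. The groups overlapped, since PLA_A replicate 2 lay below CIA_B replicate 1, and this was the only differential miRNA of which that was so. Its log2 fold change of 2.88 (SE 1.20) became 0.25 without PLA_A replicate 1. The partner strand miR-150-3p had 1.73 and 3.97 cpm against 45.8 and 5.10 cpm, with a log2 fold change of 2.89 that became 0.63 without the same library.

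The 5 other leukocyte miRNAs did not pass the thresholds. miR-342-3p, of lymphocytes, had 32.9 and 19.1 cpm in CIA_B and 275 and 9.12 cpm in PLA_A, with PLA_A replicate 1 above and replicate 2 below both CIA_B libraries. miR-223-3p, of granulocytes and other myeloid cells, had 10.4 and 28.1 cpm in CIA_B and 43.3 and 45.9 cpm in PLA_A, so that for the myeloid miRNA the PLA_A libraries were alike (log2 fold change 1.16, SE 0.56). miR-511-3p, of macrophages, had 2.60 and 3.38 against 5.73 and 5.10 cpm, and miR-223-5p was the member with a negative fitted value, a log2 fold change of −0.92.

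Summed over the 9 leukocyte miRNAs, the level was 727 and 615 cpm in CIA_B and 13093 and 1176 cpm in PLA_A, against 1672 and 753 cpm in PLA_E and 834 and 1827 cpm in MS_A. PLA_A replicate 1 was thus apart from all other libraries shown, while PLA_A replicate 2 lay within the range of PLA_E and MS_A. Without PLA_A replicate 1, 2 of the 9 passed the thresholds and the median log2 fold change was 0.63. Without CIA_B replicate 1 also 2 passed, and without PLA_A replicate 2, 6 passed. limma-voom called 2 of the 9, both strands of miR-142, and DESeq2 5.

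**Figure D2:**
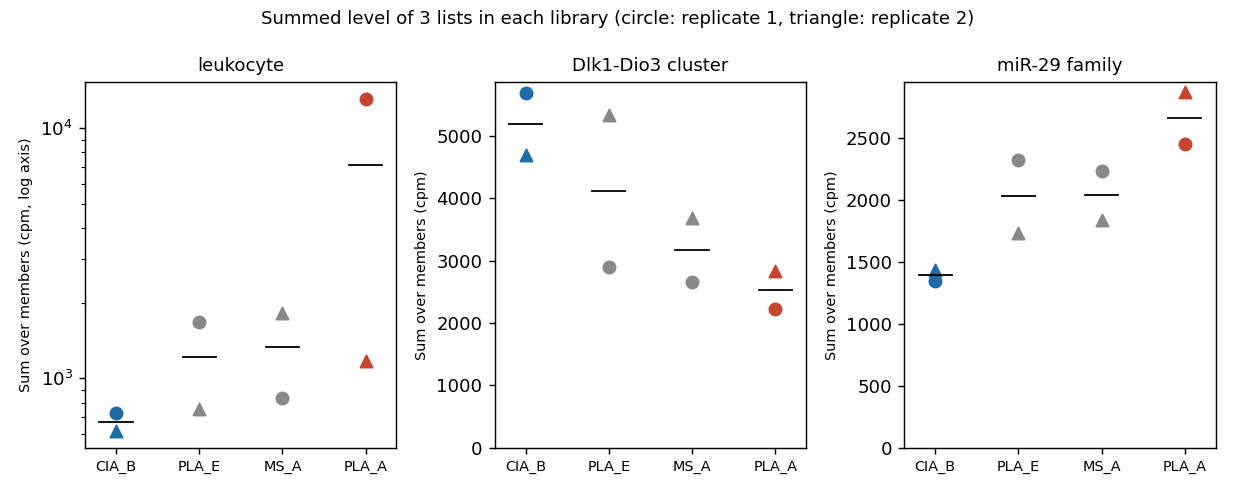
Summed cpm of the leukocyte miRNAs (log axis), the Dlk1-Dio3 cluster and the miR-29 family (linear axes) in each library of 4 groups, with group means as lines. PLA_A replicate 1 is at 13093 cpm of leukocyte miRNAs and replicate 2 at 1176 cpm, whereas for the other 2 lists both PLA_A libraries lie on the same side of both CIA_B libraries.

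Among the miRNAs induced in inflammation, 2 of 8 tested rose and 0 fell (4.74% and 2.23% of all), and the median log2 fold change was 0.12, against 0.11 over all miRNAs. miR-21-5p had 1461 and 3067 cpm in CIA_B and 5311 and 6661 cpm in PLA_A, so the groups did not overlap and the PLA_A libraries were alike (log2 fold change 1.40, SE 0.54). Without CIA_B replicate 1, the smallest library, the value was 0.88. Its partner strand miR-21-3p had 6.92 and 12.4 cpm against 21.2 and 34.5 cpm (log2 fold change 1.46) and did not pass. miR-147, induced by Toll-like receptor signals in macrophages, had 0 and 0.59 cpm in CIA_B and 3.74 and 3.10 cpm in PLA_A, or 4 counts in CIA_B replicate 2 against 15 and 17 in PLA_A.

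The feedback inhibitors of NF-kappaB signalling, miR-146a-5p and miR-146b-5p, did not pass. miR-146a-5p had 960 and 1053 cpm in CIA_B and 1830 and 1021 cpm in PLA_A, and miR-146b-5p had a log2 fold change of −0.26 (SE 0.59). The strands of miR-132 and miR-212, which CREB induces, had log2 fold changes between −0.76 and −0.46. Left out in turn, 3 of the 4 libraries each left 0 of the 8 past the thresholds, and 2 remained without CIA_B replicate 2.

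Of the 3 erythroid miRNAs tested, 2 rose (4.74% of all miRNAs tested did) and all 3 had both PLA_A libraries above both CIA_B libraries (20.9% of all). miR-144-3p had 0.87 and 1.76 cpm in CIA_B and 11.7 and 14.0 cpm in PLA_A (log2 fold change 2.85, SE 1.24), and miR-144-5p had 3.46 and 2.79 cpm against 6.73 and 11.9 cpm (1.5, SE 0.59). The neighbouring hairpin miR-451, which is cut by Argonaute2 and is abundant in red cells, had 19.9 and 12.9 cpm against 24.2 and 41.6 cpm and did not pass (1.01, SE 0.68). In contrast to the leukocyte miRNAs, the higher PLA_A library was here replicate 2, at a sum of 67.5 cpm against 42.6 cpm in replicate 1 and 24.2 and 17.5 cpm in CIA_B. Without PLA_A replicate 1, 1 of the 3 passed, and without any other of the 4 libraries none did. limma-voom called 1 of the 3 and DESeq2 2. How far blood in the tissue moved with these groups was not tested.

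In the miR-17/92 cluster and its paralogs, miRNAs that promote proliferation and lymphocyte survival, 2 of 13 rose and 0 fell (4.74% and 2.23% of all), and in 8 both PLA_A libraries lay above both CIA_B libraries (61.5%, against 20.9% of all). The median log2 fold change was 0.82. The summed level was 1508 and 2393 cpm in CIA_B and 2621 and 2383 cpm in PLA_A, so the groups overlapped in the sum. The members share their libraries and are not separate measurements of the groups. miR-20a-5p had 8.66 and 11.2 cpm in CIA_B and 38.4 and 17.9 cpm in PLA_A (1.45, SE 0.52, and 0.80 without PLA_A replicate 1). Its seed mates miR-106b-5p, miR-17-5p and miR-93-5p had log2 fold changes of 0.88, 0.82 and 0.59 and did not pass. miR-19a-3p, a main strand of the cluster, had 0.87 and 1.62 cpm against 5.73 and 7.29 cpm (1.99, SE 0.78), and its seed mate miR-19b-3p had 21.6 and 49.0 cpm against 87.2 and 84.4 cpm (1.25, SE 0.58). In both miR-19 members the groups did not overlap. The members with negative fitted values, miR-25-3p and miR-106b-3p, had log2 fold changes of −0.14 and −0.24 and come from the paralogous miR-106b hairpin cluster. The passenger strand miR-92a-1-5p, which was not in this list, also rose, from 2.60 and 3.09 cpm to 14.7 and 4.19 cpm, and its log2 fold change of 1.58 was 0.47 without PLA_A replicate 1. miR-32-5p, which has the seed of miR-92a but lies elsewhere, had 0.87 and 1.47 cpm against 8.72 and 4.74 cpm (2.11, SE 0.70), while the abundant members with that seed, miR-92a-3p and miR-25-3p, had 0.63 and −0.14. With 1 library left out, the number of the 13 that passed was 0 without CIA_B replicate 1 or PLA_A replicate 1, 1 without CIA_B replicate 2 and 2 without PLA_A replicate 2.

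In the miR-29 family 1 of 6 rose (4.74% of all), and in 4 both PLA_A libraries lay above both CIA_B libraries (20.9% of all). miR-29b-3p had 23.4 and 19.6 cpm in CIA_B and 65.5 and 75.3 cpm in PLA_A, with libraries alike within each group (log2 fold change 1.70, SE 0.66). miR-29c-3p had 277 and 225 cpm against 564 and 551 cpm (1.15, SE 0.59), and miR-29a-3p, the most abundant, had 996 and 1163 cpm against 1746 and 2207 cpm (0.87, SE 0.44). Neither passed, although their groups did not overlap either. The summed level was 1348 and 1431 cpm in CIA_B and 2452 and 2870 cpm in PLA_A, and the median log2 fold change was 0.92 in the pair of replicates 1 and 0.93 in the pair of replicates 2. The family thus had like values in both pairs, unlike the leukocyte miRNAs, whose medians in these pairs were 3.06 and 0.59. Without PLA_A replicate 1, 1 member passed, and without any other of the 4 libraries none did.

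In the family of miR-15, miR-16, miR-195 and miR-497, which restrains the cell cycle, the passenger strand miR-15b-3p rose as 1 of 7 tested (4.74% of all), from 0.87 and 1.76 cpm to 8.72 and 2.73 cpm (log2 fold change 1.72, and 0.73 without PLA_A replicate 1), and none of the other 6 passed. miR-15b-5p had 25.1 and 16.2 cpm against 116 and 21.0 cpm, again with PLA_A replicate 1 apart. The abundant miR-16-5p had a log2 fold change of 0.37 (SE 0.61).

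The imprinted Dlk1-Dio3 cluster, in which a long transcript from the maternal chromosome carries a long row of miRNA hairpins, held 7 of the 8 miRNAs that fell. Of 86 names listed for the cluster 85 were in the files and 55 were tested, of which 7 fell and 0 rose (2.23% and 4.74% of all). In 31 of the 55 both PLA_A libraries lay below both CIA_B libraries (56.4%, against 15.6% of all miRNAs tested), and in 1 both lay above. The log2 fold change was above 0 in 6 of the 55 (against 55.7% of all miRNAs tested) and below 0 in 49, with a median of −1.0, or −0.70 with library size alone and −1.08 with the size factors of DESeq2. In the pair of replicates 1 the median was −1.59 and in the pair of replicates 2 it was −0.67. These 55 come from few transcripts and share their libraries, so they are not 55 separate measurements of the groups.

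miR-410-3p had 138 and 119 cpm in CIA_B and 20.4 and 41.9 cpm in PLA_A (log2 fold change −2.03, SE 0.69). miR-381-3p had 41.5 and 34.7 cpm against 15.2 and 10.9 cpm (−1.52, SE 0.60), and miR-434-5p had 52.8 and 42.1 cpm against 13.9 and 23.9 cpm (−1.30, SE 0.49). In these 3 the libraries within a group differed less than the groups did. miR-541-5p had 285 and 142 cpm against 91.9 and 101 cpm (−1.14, SE 0.47), and its value was −0.64 without CIA_B replicate 1. At low counts, miR-299a-3p had 4.33 and 6.62 cpm against 0.75 and 1.64 cpm, and miR-539-3p had 9.52 and 2.06 cpm against 1.00 and 0.91 cpm. miR-409a-5p had 22 counts in CIA_B and 1 in PLA_A, a ratio of their cpm of 26.3 with a 95% counting interval from 4.25 to 1084, higher in CIA_B.

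The most abundant strands of the cluster did not pass in edgeR. miR-127-3p, which lies antisense to the retrotransposon-derived gene Rtl1, had 2543 and 2408 cpm in CIA_B and 737 and 1406 cpm in PLA_A (log2 fold change −1.21, SE 0.54), and was called by DESeq2 and limma-voom, at −1.28 in both. miR-434-3p had 932 and 629 cpm against 505 and 241 cpm, and miR-411-5p had 767 and 660 cpm against 309 and 506 cpm, without overlap of the groups in any of these 3. miR-136-5p and miR-136-3p were nearer to 0, at −0.02 and −0.30. The sum over the 55 was 5692 and 4692 cpm in CIA_B and 2232 and 2832 cpm in PLA_A. It was 2661 and 3685 cpm in MS_A and 2897 and 5337 cpm in PLA_E, so that the libraries of 34 days lay below those of CIA_B in both arms, while 1 library of PLA_E lay below and 1 within the range of CIA_B. The number of members past the thresholds on the lower side was 2 without CIA_B replicate 1, 9 without CIA_B replicate 2 (with 1 on the higher side), 3 without PLA_A replicate 1 and 11 without PLA_A replicate 2. It was 9 with DESeq2, 7 with limma-voom and 17 with a term for the miR-1-3p split, of 14, 8 and 21 miRNAs lower in all by these fits. With library size alone it was 3 of 3, since miR-381-3p, miR-434-5p, miR-541-5p and miR-539-3p did not pass. The median log2 fold change stayed between −1.21 and −0.64 without single libraries.

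**Figure D3:**
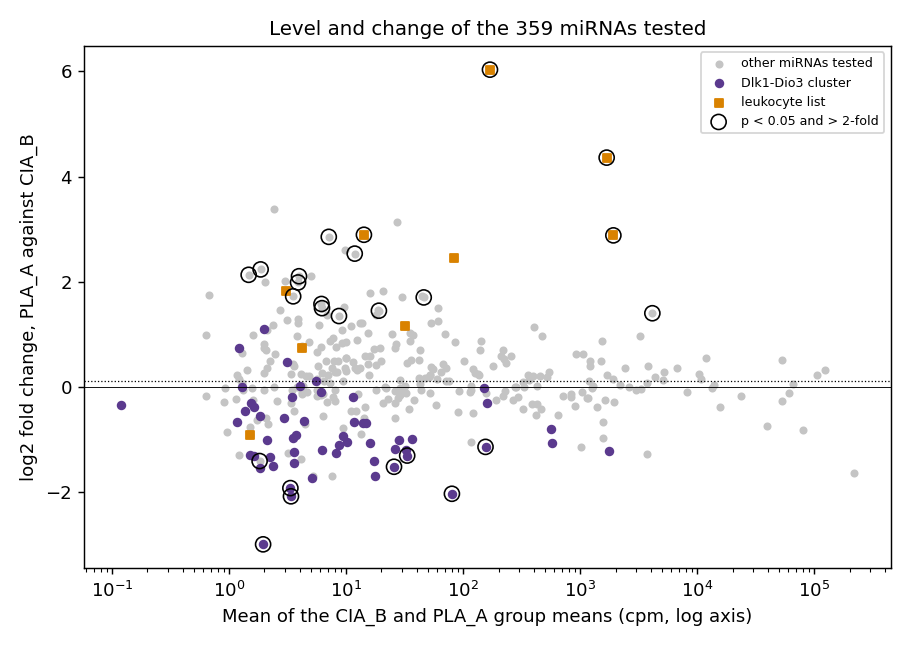
Log2 fold change between PLA_A and CIA_B against the mean level (cpm, log axis) of the 359 miRNAs tested, with the leukocyte list as orange squares, the Dlk1-Dio3 cluster as purple points and the 25 differential miRNAs circled; the dotted line is the median of all, 0.11. The cluster lies mostly below the line at all levels, with a median of −1.0, and both strands of miR-142, at 6.03 and 4.36, hold the largest positive values.

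The list of skeletal muscle miRNAs had no member past the thresholds, and in none of its 5 members tested did the groups separate (20.9% of all miRNAs had both PLA_A libraries above and 15.6% both below). miR-206-3p, of satellite cells and regenerating fibres, had 14928 and 1868 cpm in CIA_B and 14652 and 1143 cpm in PLA_A, so that libraries of a group differed more than the groups. The summed level was 241685 and 91944 cpm against 189294 and 160718 cpm. The slow-fibre miRNAs of the myosin genes, miR-499 and miR-208b, had 829 and 586 cpm in CIA_B and 1033 and 143 cpm in PLA_A when summed. None of the 3 tested passed, but 1 was past the thresholds on the lower side when PLA_A replicate 1 was left out.

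Of the 11 epithelial miRNAs tested, none passed, while 6 had both PLA_A libraries above and 2 both below both CIA_B libraries (54.5% and 18.2%, against 20.9% and 15.6% of all). The keratinocyte miRNAs miR-203a-3p and miR-205 had 11.3 and 34.1 against 41.8 and 53.8 cpm and 17.3 and 32.5 against 52.6 and 47.8 cpm. miR-200c-3p had 1 count in CIA_B and 39 in PLA_A, of which 37 were in replicate 1, a ratio of cpm of 32.7 with a 95% counting interval from 5.53 to 1323. miR-200b-3p had 1 count against 12 (ratio 10.0, interval 1.49 to 430). miR-184 was lower, at 12.1 and 11.5 against 4.48 and 2.37 cpm. DESeq2 called 2 of the 11 higher and 1 lower, limma-voom none, and edgeR 1 higher when CIA_B replicate 2 or PLA_A replicate 2 was left out. The summed level was 224 and 452 cpm in CIA_B and 353 and 398 cpm in PLA_A, so the groups overlapped in the sum. Their part in the other results was not tested.

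The endothelial, smooth muscle, fibroblast, cartilage and adipose lists had no differential member either, and their median log2 fold changes were 0.36, 0.24, 0.00, 0.69 and 0.52. With 1 library left out, 1 cartilage miRNA passed without PLA_A replicate 2 and 1 adipose miRNA without CIA_B replicate 1, and DESeq2 and limma-voom each called 1 of the adipose list. miR-126a-3p of endothelium had 2732 and 1455 cpm against 3025 and 2336 cpm. miR-140-5p, of chondrocytes, had 8.66 and 10.9 cpm against 41.6 and 10.6 cpm, with PLA_A replicate 1 alone apart. In the adipose and metabolic list miR-33-5p, which lies within the Srebf2 gene, had 3.46 and 0.59 cpm against 7.72 and 8.39 cpm and did not pass. Of the 6 neural miRNAs tested 1 rose (4.74% of all), miR-384-3p, with 3 counts in CIA_B against 25 in PLA_A, a ratio of cpm of 6.98 with a 95% counting interval from 2.13 to 36.1. It passed when PLA_A replicate 2 was left out and did not pass when any other of the 4 libraries was.

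**Figure D4:**
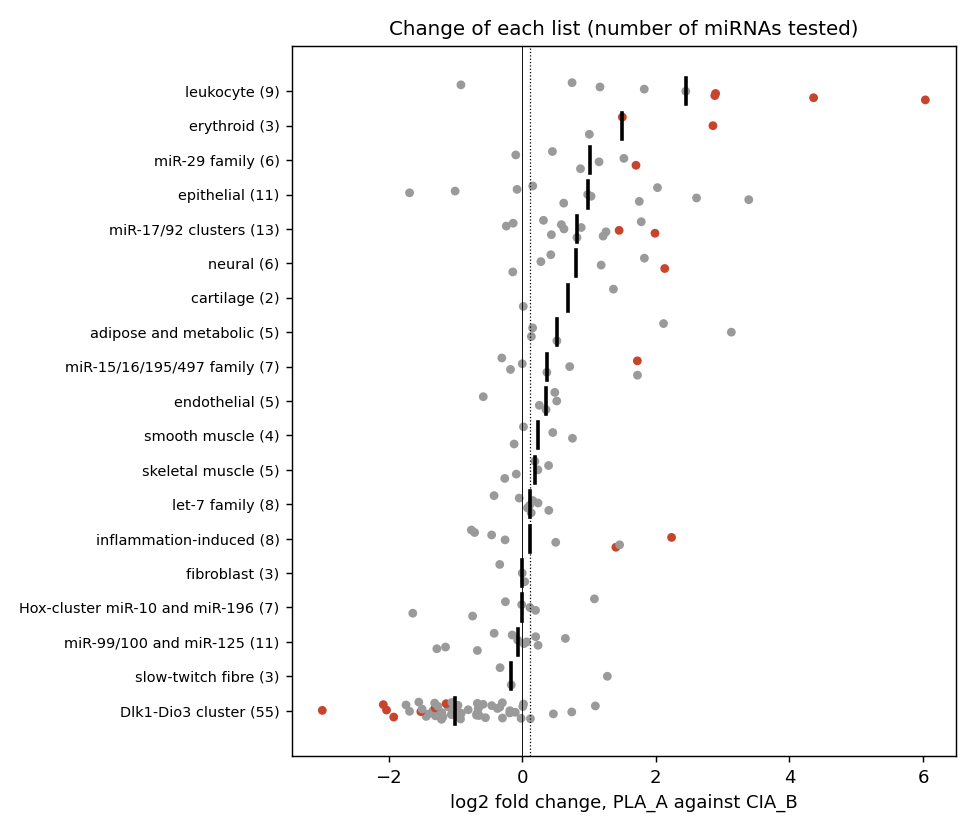
Log2 fold change between PLA_A and CIA_B of each tested member of the 19 lists, with differential miRNAs in red, list medians as black bars and the median of all miRNAs as a dotted line. The medians run from −1.0 in the Dlk1-Dio3 cluster to 2.45 in the leukocyte list, and the muscle, fibroblast and let-7 lists lie near the line.

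The abundant miRNAs of the Hox clusters and of the miR-99/100 family had no member past the thresholds in edgeR. miR-10b-5p, the most abundant miRNA of CIA_B, held 34.5% and 21.9% of all reads on miRNAs in CIA_B and 11.1% and 12.2% in PLA_A. Its log2 fold change was −1.64 (SE 1.01), and the 2 CIA_B libraries differed from each other at 452378 and 205356 cpm. miR-99b-5p and miR-100-5p, whose seeds are related to that of miR-10, had log2 fold changes of −1.28 (SE 0.61) and −1.15 (SE 0.71), without overlap of the groups. DESeq2 called miR-99b-5p, and the fit with a term for the miR-1-3p split called miR-10b-5p (−1.95) and both miR-99b-5p and miR-100-5p (−1.38 and −1.29). The miR-125 main strands encoded beside them were at 0.24 and 0.03. No let-7 main strand passed, their log2 fold changes lay between −0.42 and 0.40, and in none of the 8 did the groups separate (20.9% above and 15.6% below in all).

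The differential miRNAs outside the lists were 5, of which miR-92a-1-5p and miR-32-5p are given above. miR-187-3p had 1.73 and 4.27 cpm in CIA_B and 5.73 and 35.6 cpm in PLA_A, and its log2 fold change of 2.54 was 0.61 without PLA_A replicate 2. miR-7a-1-3p, a passenger strand, had 6.06 and 3.68 cpm against 10.7 and 14.2 cpm. let-7c-1-3p, a passenger strand of a let-7 hairpin, was the only miRNA outside the Dlk1-Dio3 cluster that fell, from 3.46 and 2.21 cpm to 1.25 and 0.36 cpm.

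Strands of a hairpin were matched where their names differ only in 5p or 3p and both were tested. In 10 such hairpins with a differential strand, both strands had fold changes of one sign, against 64 of 101 hairpins in all. Strands with a precursor number in their name were not matched to a main strand. Among these, let-7c-1-3p and let-7c-5p differed in sign (−1.41 and 0.08), and miR-92a-1-5p and miR-92a-3p did not (1.58 and 0.63). Both strands passed in 3 of the 10, miR-142, miR-150 and miR-144. The ratio of the 5p to the 3p strand of miR-142 was 23.4 and 41.7 in CIA_B and 9.20 and 17.9 in PLA_A. It was 7.49 in PLA_E replicate 1 and 9.90 in MS_A replicate 2, so a ratio of this size was not particular to PLA_A.

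Replicates 1 were also compared with each other and replicates 2 with each other. This sets a library rich in miR-1-3p against another and a poor one against another. The direction was the same in both pairs for 212 of all 359 miRNAs tested and for all 25. The 25 were chosen for a difference between these libraries, which fixes most of this, so the ratios of the pairs are given for their size. In 14 of the 25 both pairs exceeded 2-fold in the same direction, as in 34 of all 359 miRNAs tested. The 14 include both strands of miR-142 (log2 ratios of 7.20 and 2.62 for the 3p strand), miR-144-3p (2.17 and 2.99), miR-29b-3p (1.49 and 1.94), miR-21-5p (1.86 and 1.12) and miR-410-3p (−2.76 and −1.50). miR-150-5p was not among them, with 3.44 and 0.62. When 1 of the 4 libraries was left out, 5 of the 25 passed without CIA_B replicate 1, 10 without CIA_B replicate 2, 8 without PLA_A replicate 1 and 12 without PLA_A replicate 2, and none changed direction. The log2 fold change stayed above 1 in size in all 4 fits for 13 of the 25. Without CIA_B replicate 1 that of miR-539-3p was −0.97 in place of −2.08. Without CIA_B replicate 2, miR-21-5p was at 2.03. For miR-147 and miR-384-3p the CIA_B library then left held 0 counts, so their fitted values of 3.31 and 3.01 rest on the prior count. Without PLA_A replicate 1, let-7c-1-3p was at −2.05, with 2 counts left in PLA_A, and miR-187-3p at 3.28. Without PLA_A replicate 2, miR-299a-3p was at −2.52, with 3 counts left in PLA_A, and miR-410-3p at −2.73. Of the 25, 11 had means under 10 cpm in both groups, where a few reads decide the value.

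**Figure D5:**
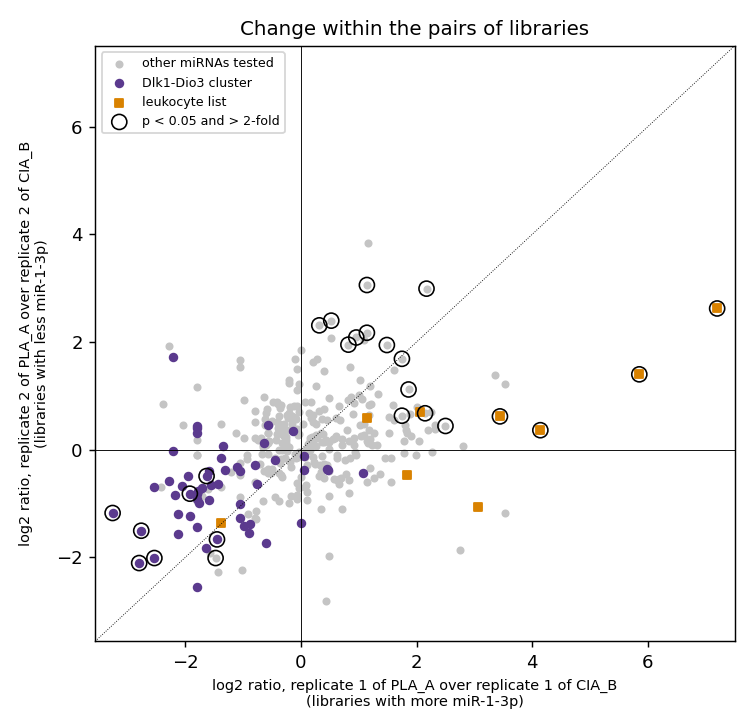
Log2 ratio of PLA_A to CIA_B in the pair of replicates 1 (horizontal) and in the pair of replicates 2 (vertical) for the 359 miRNAs tested, with counts under 3 set to 3 and the dotted line marking equal ratios. The 25 differential miRNAs (circled) lie in the quadrants of equal direction, and both strands of miR-142 and of miR-150 lie far to the right of the line, with larger ratios between replicates 1.

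The change from CIA_B was also set beside that of the groups with which PLA_A shares its arm or its time. These comparisons use the same CIA_B libraries, so their values are given side by side. The 25 were chosen for their change in PLA_A, so a larger value there is a description. miR-142-3p had log2 fold changes of 6.03 in PLA_A, 2.51 in PLA_E and 1.78 in MS_A. miR-29b-3p had 1.70, 1.38 and 0.55, miR-410-3p had −2.03, −0.65 and −1.43, and miR-381-3p had −1.52, −1.20 and −1.76. The median of the Dlk1-Dio3 cluster was −1.0 in PLA_A, −0.39 in PLA_E and −0.73 in MS_A. Past the thresholds were 2 miRNAs in PLA_E (0.557%) and 4 in MS_A (1.11%).

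Compared directly with PLA_E, 10 miRNAs passed the thresholds in PLA_A (2.79%), of which 7 were higher (1.95%) and 3 lower (0.836%). With MS_A 7 passed (1.95%), of which 6 were higher (1.67%) and 1 lower (0.279%). This balance against MS_A turned to more lower than higher when MS_A replicate 1 was left out. No adjusted p in edgeR was under 0.05 in either comparison, where 10 and 7 miRNAs had an unadjusted p under 0.05, and DESeq2 gave 0 against PLA_E and 2 against MS_A. edgeR without PLA_A replicate 2 gave 1 in each. Both strands of miR-142 and miR-150-3p passed in both, with log2 fold changes of 3.52, 3.38 and 2.08 against PLA_E and of 4.25, 3.71 and 2.42 against MS_A. Against PLA_E the groups overlapped in 2 of these, since PLA_A replicate 2 lay below PLA_E replicate 1 in miR-142-3p (30.8 and 49.7 cpm) and in miR-150-3p (5.10 and 7.24 cpm). The lymphocyte miRNA miR-342-5p passed in both, at 2.25 and 2.49, and miR-342-3p against MS_A alone, at 2.77, with 275 cpm in PLA_A replicate 1 and 9.12 cpm in replicate 2. Of the Dlk1-Dio3 cluster, miR-495 was lower in PLA_A in both, with 1.25 and 1.09 cpm against 3.62 and 3.04 cpm in PLA_E and 3.32 and 3.05 cpm in MS_A, and miR-409a-5p was lower than in PLA_E. When PLA_A replicate 1 was left out, 3 miRNAs passed against PLA_E and 2 against MS_A, and without PLA_A replicate 2 it was 22 and 14.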

How the data were processed

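Small RNA libraries of 10 rat tissue samples in 5 groups of 2 were analysed, and the 4 of CIA_B and PLA_A form the comparison. The authors used TruSeq small RNA preparation and HiSeq sequencing, demultiplexed with CASAVA 1.8, trimmed adapters, aligned to rn4 and to rat miRBase sequences with miRDeep2 and deposited whole read counts per precursor without normalization. A read can count at several precursors, and the largest count of each mature miRNA was used (35 of 723 miRNAs had several). A table of the series with 20 columns of values that match no label was not used.

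edgeR 4.0.16 (R 4.3.3) was applied to the deposited counts, with TMM scaling, the quasi-likelihood test, a prior count of 2 and a mean per group over all 10 libraries. Tested were the 359 miRNAs that reached 1 cpm in 5 or more libraries. SE is that of the log2 fold change, taken from the test statistic. Benjamini-Hochberg adjustment covered all 359. With 2 libraries against 2 an exact two-sided permutation test cannot give a p below 0.333. Nothing states whether the 2 libraries of a group come from separate animals, so p-values measure the spread between libraries. The 2 libraries of a group were not duplicates, with a chi-square of 1572 in CIA_B and 2307 in PLA_A per degree of freedom. In the comparison of all 4 libraries, a 95% counting interval replaces the fitted value where a group held 1 to 3 counts. Values without single libraries are fitted values also where so few counts were left. Such intervals and floors cover counting error only. The edgeR step was also run on simulated counts.

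Alternatives were DESeq2 1.42.0, limma-voom 3.58.1, other scalings and filters, only the libraries compared, summed counts, a replicate block, a term for the miR-1 split and each library left out. The count of calls with a prior count of 0.5, the lists without single libraries or under other fits and scalings, and the use of the split term as a crossed pairing were added after seeing the data. The members and lists were chosen with earlier results of these data known. Named miRNAs are those past the thresholds and members of the lists. Any other was chosen after its values were seen. 19 lists were written from general knowledge of cell types, clusters and seed families.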

Additional observations from a re-analysis of the deposited data

Results flagged for a closer look

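The 3 miRNAs flagged here had both PLA_A libraries on one side of both CIA_B libraries and both libraries of a second group on the other side. Of the 359 tested, 20.9% had both PLA_A libraries above and 15.6% both below both CIA_B libraries. The share that also had a second group on the other side is not given, so the 3 are a description only. miR-132-3p had 8.47 and 9.84 cpm in PLA_A, 14.3 and 19.6 cpm in PLA_E and 12.1 and 13.2 cpm in CIA_B, with a direct log2 fold change between PLA_A and PLA_E of −0.86. miR-431, of the Dlk1-Dio3 cluster, had 5.98 and 11.7 cpm in PLA_A, 15.95 and 18.5 cpm in PLA_E and 15.6 and 12.9 cpm in CIA_B, with a direct log2 fold change of −0.93. miR-363-3p, of the miR-17/92 paralogs, had 42.1 and 8.2 cpm in PLA_A, 4.98 and 3.17 cpm in MS_A and 6.06 and 7.79 cpm in CIA_B, with a direct log2 fold change between PLA_A and MS_A of 2.53, which rests on PLA_A replicate 1. These were noted from the order of the libraries, and for miR-132-3p and miR-431 the direct test of edgeR did not reach an unadjusted p under 0.05. That of miR-363-3p did, and no adjusted p was under 0.05.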

How the results depend on the processing

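The 25 differential miRNAs between PLA_A and CIA_B became 13 (of 182 tested) with a mean of at least 100 counts and 47 with a term for the miR-1 split. With each library left out in turn the count lay between 9 and 27, at 9 without CIA_B replicate 1 and 13 without PLA_A replicate 1. DESeq2 gave 35, the size factors of DESeq2 30, limma-voom 20, library size alone 23, no filter 27, only the 4 libraries 27, summed counts 26 and a prior count of 0.5 26. Of the 25, 22 were also called by DESeq2 and 18 by limma-voom. Only 16 of the 25 still passed with only the 4 libraries compared, 19 with library size alone and 20 with no filter. Against PLA_E, 10 became 5 with limma-voom, 4 with library size alone, 3 with a mean of at least 100 counts, 3 with only the 4 libraries compared and 17 with the split term, and without single libraries between 2 and 22 (3 without PLA_A replicate 1, 22 without PLA_A replicate 2, 18 without PLA_E replicate 1, 2 without PLA_E replicate 2). Against MS_A, 7 became 1 with limma-voom, 2 with a mean of at least 100 counts, and 14 with the split term, and without single libraries between 2 and 14 (2 without PLA_A replicate 1, 14 without PLA_A replicate 2). None of the 25 log2 fold changes changed direction where an alternative gave a value (for 10 of them with a mean of at least 100 counts and 24 with summed counts), whereas values near 0 did, such as miR-106b-3p (−0.24, and 0.68 without CIA_B replicate 2). The replicate numbers do not establish a pairing, since there are only 2 pairs and nothing says that a number marks a shared animal or day. Deviations of libraries with the same number correlated at 0.34 between CIA_B and PLA_A, and the replicate block gave 21, 7 and 4 miRNAs in the 3 comparisons. With the block, 6 of the 25 did not pass, namely miR-150-5p, miR-144-3p, miR-541-5p, miR-92a-1-5p, miR-15b-3p and let-7c-1-3p. Between PLA_A and MS_A the correlation was −0.55, and the crossed pairing, which is that of the miR-1 split, gave 14. Depth limited the smallest library, CIA_B replicate 1, where 213 of the 359 miRNAs had more than 10 counts, against 300 to 317 in the other 3.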
